A study of Mus musculus with 6 samples.

Results

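Proteins that enter the secretory pathway are folded in the endoplasmic reticulum (ER) by chaperones and disulfide isomerases, and craniofacial mesenchyme at mid-gestation secretes large amounts of collagen and other matrix proteins. When unfolded protein builds up in the ER, the sensors Ire1, Perk and Atf6 start the unfolded protein response (UPR): Ire1 splices *Xbp1* mRNA, Perk raises the translation of *Atf4* mRNA, which in turn drives *Ddit3* (CHOP), and the factors Xbp1 and Atf6 switch on the chaperone genes. Expression of 10 genes of this system was examined in the *Rbfox2* mutant craniofacial tissue. They were taken by name from the deposited table of 38553 genes and comprise 7 ER chaperones and isomerases (*Hspa5*, *Hsp90b1*, *Calr*, *Canx*, *Pdia3*, *Pdia4* and *Pdia6*) and 3 transcription factors of the response (*Ddit3*, *Atf4* and *Xbp1*). All 10 were found once each.

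The samples were microdissected craniofacial tissue of E12.5 mouse embryos, 3 controls with the genotype Rbfox2 flox/flox and 3 mutants with the genotype Pax3Cre/+:Rbfox2 flox/flox, so both groups carried the floxed alleles and the Cre allele was present in the mutants alone. Pax3Cre is a knock-in that recombines in neural crest and also in paraxial mesoderm and somite derivatives, so the dissected tissue, which also holds epithelium and blood, contained cells without Cre. The effect of the Cre allele itself and that of *Rbfox2* loss cannot be told apart. Values are FPKM, the fragments mapped to a gene divided by its length and by all mapped fragments, as the authors deposited them. They summed to between 528123 and 590174 in a sample. The paper gives the sequencing depth per sample, but the exact count of reads behind a value is unknown. In bulk tissue, fewer cells that express a gene and less RNA per cell cannot be told apart.

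*Rbfox2*, the deleted gene, had FPKM of 58.4, 65.0 and 61.3 in control replicates 1, 2 and 3 and 38.1, 36.3 and 34.3 in mutant replicates 1, 2 and 3. The groups did not overlap, and the mutant mean was 58.8% of the control mean (log2 fold change -0.75, standard error 0.079, limma adjusted p = 0.138). The samples labelled replicate 1 stood apart from the other 4 in both genotypes. Among the 10061 genes tested, 34.7% were lower in both of them than in all of the other 4 samples and 18.4% were higher. Of the facial mesenchyme markers, 8 of 8 were expressed, with a summed FPKM between 380 and 474. The summed FPKM of 8 neuron markers was 763 to 854 in controls and 914 to 1019 in mutants, that of 6 skeletal muscle markers was 143 to 363 and 138 to 207, and that of 5 erythroid markers was 1272 to 2652 and 1924 to 2622. By single genes, all 8 neuron markers had a log2 fold change above 0. In limma 4 of them had an unadjusted p under 0.05, against 1.66% of all genes tested. In 5 of them the groups did not overlap, against 5.0%. No tested marker of the other cell type lists had such a p. The summed FPKM of 4 Y-linked genes was 57.7 and 55.5 in mutant replicates 1 and 2 and at most 0.217 in the other samples. No defining marker of these lists was at 0 in all samples. The part of cell composition and of embryo sex in the results below was not tested. A fit with Y-linked expression as a covariate cannot test it, since no control had Y-linked expression like that of mutant replicates 1 and 2. The difference by genotype in that fit rests almost wholly on mutant replicate 3 against the controls.

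To see which letters the members share upstream of their genes, the RefSeq promoter windows of GRCm38.p6, from 250 bases before to 50 after the gene start, were searched on both strands. The ER stress response element (ERSE), through which Atf6 and Xbp1 act on chaperone genes, is written as CCAAT, any 9 bases, then CCACG. It was present without a difference in the windows of 5 of the 7 chaperones and isomerases, *Hspa5*, *Hsp90b1*, *Calr*, *Canx* and *Pdia6*, while 0.119% of all 32851 windows held it. *Pdia3* and *Pdia4* held it with 1 of the 10 fixed letters different, a looser form found in 1.5% of windows. *Ddit3* also held the looser form. These stretches are shown as a description. An element that acts on chaperone genes was likely in advance to be found in them. Whether it bears on the levels of these 8 genes across the samples was not tested. Letters in capitals are the fixed letters of the element, read 5′ to 3′ on the strand of the gene, and in *Calr*, *Pdia4*, *Ddit3* and the second stretch of *Hsp90b1* the element lies on the opposite strand.
*Hspa5*, chr2:34772020-34772048: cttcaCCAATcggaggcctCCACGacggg
*Hsp90b1*, chr10:86705618-86705676: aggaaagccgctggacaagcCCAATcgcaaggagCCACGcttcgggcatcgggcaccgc
*Hsp90b1*, chr10:86705513-86705571: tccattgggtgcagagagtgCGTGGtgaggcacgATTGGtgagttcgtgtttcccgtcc
*Calr*, chr8:84847055-84847113: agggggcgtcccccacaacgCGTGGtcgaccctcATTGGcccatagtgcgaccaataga
*Canx*, chr11:50325780-50325838: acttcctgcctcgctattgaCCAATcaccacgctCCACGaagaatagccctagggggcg
*Pdia6*, chr12:17266471-17266529: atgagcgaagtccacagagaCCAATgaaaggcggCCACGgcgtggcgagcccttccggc
*Pdia4*, chr6:47813582-47813640: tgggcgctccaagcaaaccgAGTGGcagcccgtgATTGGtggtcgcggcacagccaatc
*Pdia3*, chr2:121413868-121413896: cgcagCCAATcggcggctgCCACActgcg
*Ddit3*, chr10:127290697-127290725: gccagCGTGCcgctttctgATTGGtaggc

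The genes *Hspa5*, *Pdia3*, *Pdia6* and *Ddit3* lie on the plus strand and the others on the minus strand. Counted from the RefSeq gene start, the first and last letters of the exact elements lay 65 to 47 bases before the start of *Hspa5*, 212 to 194 and 107 to 89 before *Hsp90b1*, 162 to 144 before *Calr*, 145 to 127 before *Canx* and 98 to 80 before *Pdia6*. The other factors, *Atf4* and *Xbp1*, held neither form in these windows. Of 3 other elements searched, ERSE-II (ATTGG, any base, CCACG) was in 0.0365% of windows, the UPR element TGACGTGG in 0.676% and the Atf4-type element TGATGNAA in 3.97%. None of the 10 members held any of the 3 in its window. These elements overlap in letters, since ERSE and ERSE-II share CCACG, which the UPR element holds on its opposite strand. The stretches of *Hspa5*, *Pdia3* and *Ddit3* overlap an exon of GENCODE M21 and are therefore cut shorter. A match describes these letters and not binding.

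The first question was whether the chaperones and UPR factors differ between mutant and control tissue. No difference was detected. The mutant mean was between 95.2% and 106% of the control mean in all 10 genes, 5 had a log2 fold change above 0 and 5 below (4 and 6 with median ratio scaling or quantile normalization, where *Pdia6* changed sign), and the median log2 fold change was 0.00096, against 0.0057 over all genes tested. In limma, 0 of the 10 reached an adjusted p under 0.05 (Benjamini-Hochberg over the 10061 genes, of which 0% did), and 0 of the 10 reached an unadjusted p under 0.05, as 1.66% of the 10061 did. In none of the 10 were the 3 mutant values all above or all below the 3 control values, which 5.0% of all genes showed. All 10 had an FPKM over 5 in every sample, so that none was kept through 1 group alone.

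**Figure D1:**
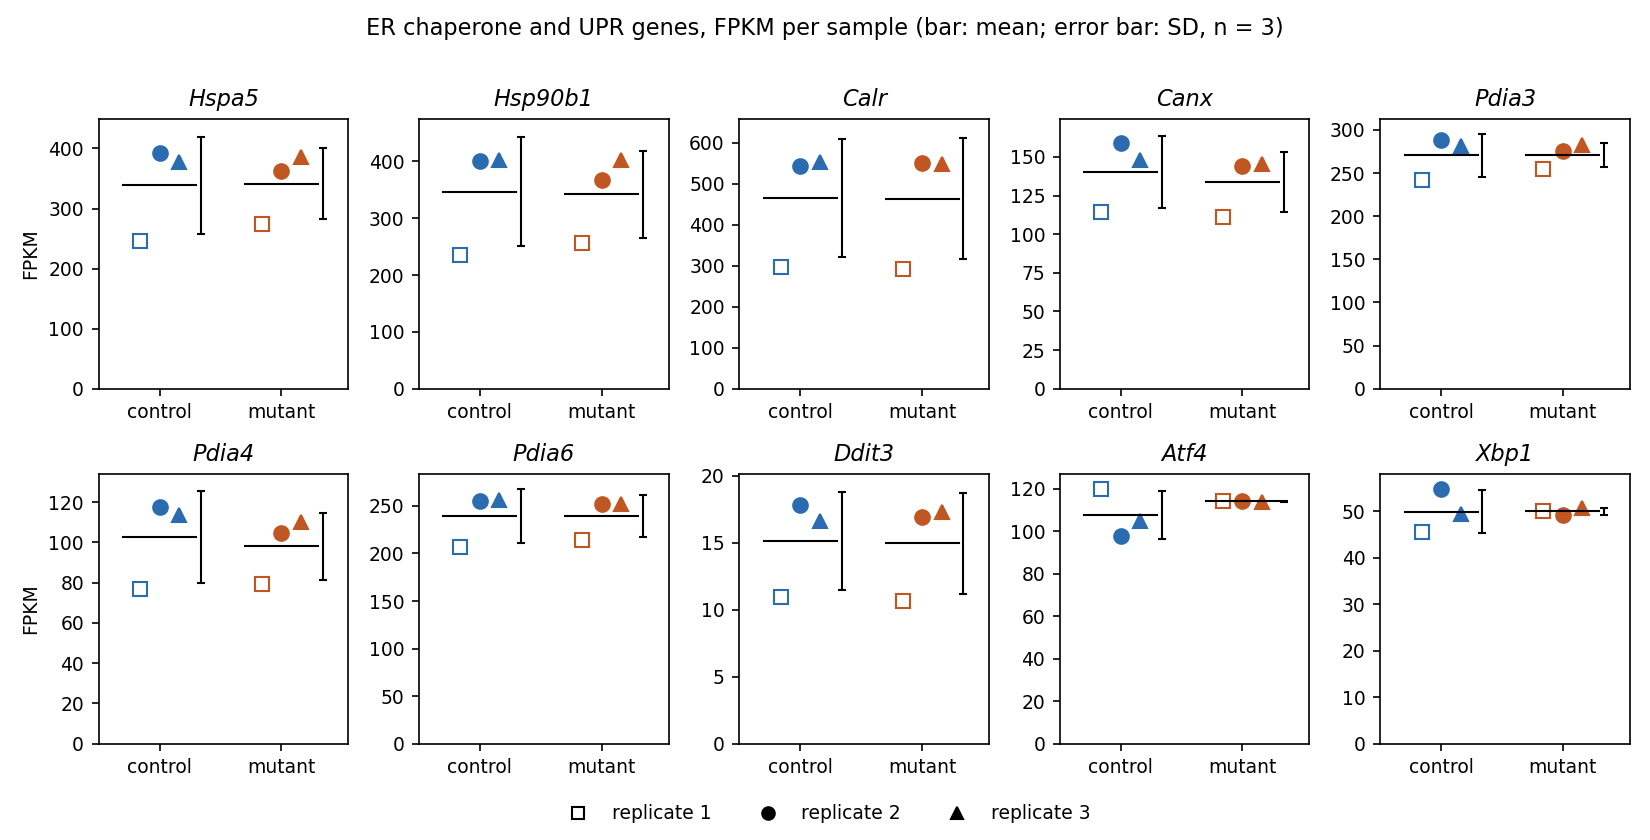
FPKM of each of the 10 genes (y axis, from 0) in the 3 control (blue) and 3 mutant (orange) samples; squares, circles and triangles are replicates 1, 2 and 3, horizontal bars are means and error bars SD. In the 7 chaperones and isomerases and in *Ddit3* the open squares of both genotypes lie below all other points, and the means of the genotypes are level.

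*Hspa5* (BiP, ENSMUSG00000026864) is the Hsp70-type chaperone of the ER lumen that also holds the UPR sensors inactive. It lies on chromosome 2 of GRCm38 from 34771970 to 34777547 on the plus strand. Its FPKM was 246, 392 and 378 in control replicates 1, 2 and 3 and 274, 363 and 387 in mutant replicates 1, 2 and 3. Replicate 1 was the lowest of its group in both genotypes, and the groups overlapped over nearly their whole range. The control mean was 339 ± 80.7 and the mutant mean 341 ± 59.1 (SD, n = 3 for both), which gave a log2 fold change of 0.026 (standard error, SE, 0.21; limma adjusted p = 1.0). Between the replicate 1 samples the mutant was higher by 0.16, and in replicates 2 and 3 the log2 fold change was -0.040.

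*Hsp90b1* (Grp94, ENSMUSG00000020048) is the Hsp90 of the ER, which folds integrins and Toll-like receptors among other clients. It lies on chromosome 10 from 86690209 to 86705509 on the minus strand, where GENCODE M21 places 3 other short or noncoding genes in the same interval. The controls had FPKM of 236, 401 and 402 and the mutants 256, 368 and 403. The highest control and the highest mutant sample were at almost the same level. The means were 346 ± 95.8 and 342 ± 76.6 (SD, 3 samples each), and the log2 fold change was -0.00099 (SE 0.25).

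The lectin chaperones *Calr* and *Canx* hold newly made glycoproteins by their trimmed sugar chains, *Calr* in the lumen and *Canx* in the membrane. *Calr* (ENSMUSG00000003814, chromosome 8 from 84841850 to 84846934, minus strand) was at 298, 544 and 554 FPKM in the control samples and at 293, 550 and 548 in the mutant samples. It was the most highly expressed of the 10 genes per length, and its replicate 1 samples were the farthest below the others of any member. The means of *Calr* were 465 ± 145 and 463 ± 148 (SD, 3 samples each), and the log2 fold change was -0.0095 (SE 0.33). *Canx* (ENSMUSG00000020368, chromosome 11 from 50293961 to 50325673, minus strand) was at 114, 159 and 148 FPKM in the control samples and at 111, 144 and 145 in the mutant samples. Its log2 fold change of -0.067 (SE 0.16) was the lowest of the 10 and well within the spread between replicates.

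The protein disulfide isomerases form and rearrange disulfide bonds, *Pdia3* (ERp57) in partnership with the lectin chaperones. *Pdia3* (ENSMUSG00000027248, chromosome 2 from 121413775 to 121438687, plus strand) was at 242, 288 and 282 FPKM in the control samples and at 255, 275 and 282 in the mutant samples. It varied least of the 7 among the samples of a group, with a coefficient of variation of 9.17% in controls and 5.21% in mutants. *Pdia4* (ENSMUSG00000025823, chromosome 6 from 47796141 to 47813430, minus strand) was at 76.6, 118 and 114 FPKM in the control samples and at 79.1, 105 and 110 in the mutant samples. *Pdia6* (ENSMUSG00000020571, chromosome 12 from 17266545 to 17284770, plus strand) was at 207, 255 and 256 FPKM in the control samples and at 214, 252 and 252 in the mutant samples. The log2 fold changes of *Pdia3*, *Pdia4* and *Pdia6* were 0.0051, -0.055 and 0.0029, with SEs of 0.10, 0.20 and 0.12. *Pdia3* and *Pdia6* share part of their interval with *Catsper2* and *Atp6v1c2* on the other strand, and the sources used here do not state whether strand was used in counting.

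Of the transcription factors, *Ddit3* (CHOP, ENSMUSG00000025408) is a target of Atf4 whose product promotes cell death under lasting ER stress. It lies on chromosome 10 from 127290774 to 127296288 on the plus strand, overlaps *Mars* on the other strand, and shares its interval with a second entry of the same name, so its value is less certain. It was the lowest of the 10 genes per length, at 10.9, 17.8 and 16.6 FPKM in the control samples and at 10.6, 16.96 and 17.3 in the mutant samples. Its replicate 1 samples were again the lowest in both genotypes, and its log2 fold change was -0.016 (SE 0.23).

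*Atf4* (ENSMUSG00000042406, chromosome 15 from 80255184 to 80257541, plus strand) is controlled mainly by translation, so that its mRNA level says little about its activity. Its FPKM was 120, 98.0 and 105 in controls and 114, 114 and 114 in mutants. The means of *Atf4* were 108 ± 11.2 in controls and 114 ± 0.395 in mutants (SD, 3 samples each). The mutants lay within the control range, and here control replicate 1 was the highest sample. The log2 fold change of *Atf4* was the highest of the 10, at 0.088 (SE 0.093, exact permutation test, two-sided, p = 0.4), where 3 samples against 3 cannot give a p below 0.10. In replicates 2 and 3 alone it was 0.17 (SE 0.063; limma adjusted p = 0.432), the only one of the 10 with an unadjusted p under 0.05 in that fit, at 0.0371. *Xbp1* (ENSMUSG00000020484, chromosome 11 from 5520659 to 5525893, plus strand) was at 45.6, 54.8 and 49.3 FPKM in the control samples and at 50.1, 49.1 and 50.7 in the mutant samples. Its log2 fold change was 0.0054 (SE 0.087), and the whole-gene value does not separate its spliced from its unspliced mRNA. For the other 9 genes the exact permutation p was between 0.5 and 1.

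How large a difference the samples could have hidden depended on the replicate 1 samples. Without a covariate, the 95% confidence interval of the log2 fold change ran from -0.78 to 0.76 for *Calr*, from -0.60 to 0.60 for *Hsp90b1* and from -0.47 to 0.52 for *Hspa5*. With the replicate number as a block the SEs of the 10 genes fell from a range of 0.087 to 0.33 to a range of 0.048 to 0.069. The labels state no pairing of samples by number, so the blocked fit rests on an assumed pairing. The blocked intervals ran from -0.13 to 0.11 for *Calr*, from -0.16 to 0.15 for *Hsp90b1* and from -0.14 to 0.19 for *Hspa5*. Over the 10 genes no blocked bound was farther from 0 than 0.25, the upper bound of *Atf4*. The block changed no call among the 10, while over all genes it raised the count with an unadjusted p under 0.05 from 167 to 604 and left none with an adjusted p under 0.05.

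**Figure D2:**
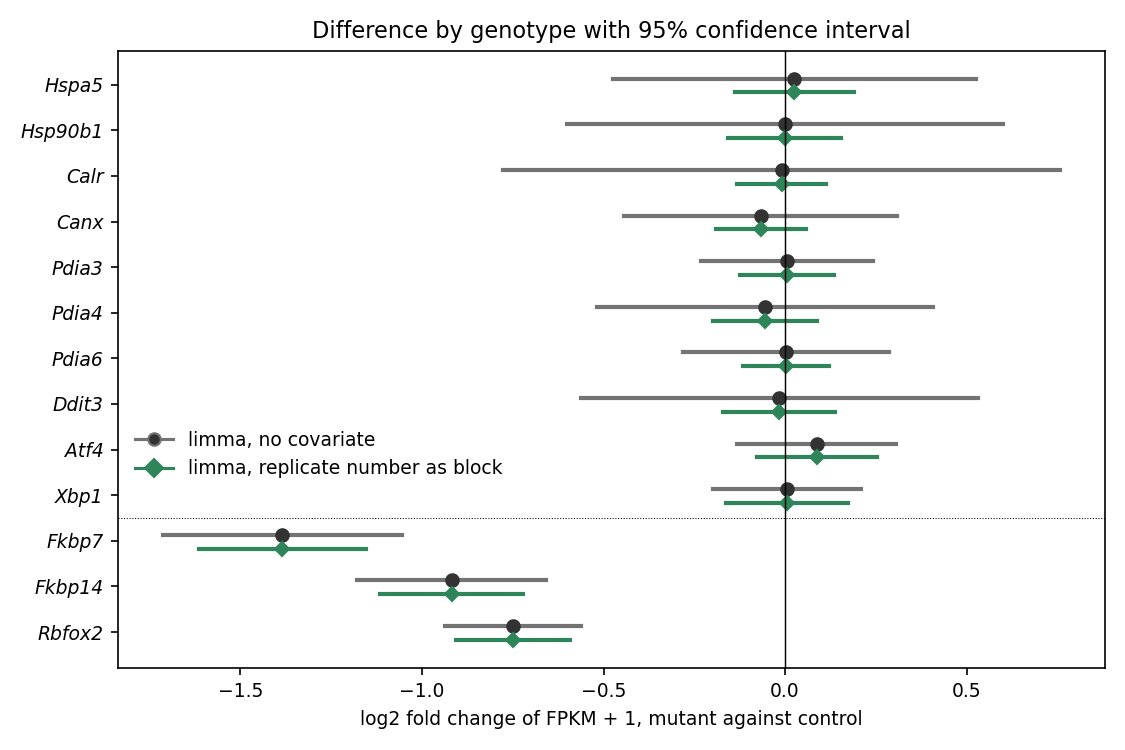
Log2 fold change of FPKM + 1 between mutants and controls (x axis) for the 10 genes and, below the dotted line, *Fkbp7*, *Fkbp14* and *Rbfox2*; points are limma estimates and lines 95% confidence intervals, without a covariate (grey) and with the replicate number as a block (green). Every interval of the 10 genes includes 0, and the blocked ones reach no farther than 0.25 from it.

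*Fkbp7* and *Fkbp14*, prolyl isomerases of the same compartment, are set beside these values. *Fkbp7* was at 20.7, 25.9 and 26.7 FPKM in the control samples and at 7.88, 10.4 and 7.95 in the mutant samples, and *Fkbp14* had 15.2, 15.8 and 14.03 in controls and 8.60, 7.47 and 6.45 in mutants. The log2 fold changes were -1.38 (SE 0.14; limma adjusted p = 0.138) and -0.92 (SE 0.11; limma adjusted p = 0.216). In both genes the groups did not overlap, as in 5.0% of all genes tested. The interval without a covariate was -1.71 to -1.06 for *Fkbp7* and -1.18 to -0.66 for *Fkbp14*. Of the other 4 genes of the FKBP list none had an unadjusted p under 0.05, with log2 fold changes of 0.13 for *Fkbp2* and -0.080 for *Fkbp9*. Whether the FKBP genes differ from the chaperones in their response was not tested.

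The second pattern was the one by replicate number. In 8 of the 10 genes, the 7 chaperones and isomerases and *Ddit3*, both replicate 1 samples were below all of the other 4 samples, against 34.7% of all genes tested. None of the 10 had both replicate 1 samples above the others, against 18.4%. Among the controls, replicate 1 stood at 54.3% of the mean of replicates 2 and 3 for *Calr*, 58.7% for *Hsp90b1*, 63.9% for *Hspa5*, 66.2% for *Pdia4*, 74.4% for *Canx*, 80.9% for *Pdia6* and 85.0% for *Pdia3*. Among the mutants the same shares were 53.3%, 66.5%, 73.2%, 73.6%, 76.8%, 85.1% and 91.5%, in the same order of genes. *Ddit3* stood at 63.5% and 61.9%. By contrast, *Atf4* stood at 118% and 100.2%, and *Xbp1* at 87.5% and 100.3%, so that in these 2 genes the replicate 1 samples overlapped the others.

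On the log2 scale, averaged over both genotypes, the difference of replicate 1 from the others was between -0.89 for *Calr* and -0.18 for *Pdia3*, with a median of -0.51 over the 7 chaperones and isomerases. The median over all genes tested was -0.054. Of the 10061 genes, 40 had a difference as low as that of *Calr* or lower, 148 as low as that of *Hsp90b1*, and 2949 as low as that of *Pdia3*. With each sample scaled by its median ratio, which brought the median of all genes to 0.0035, the median of the 7 was -0.45 and the same count of 8 of the 10 genes was lower in both replicate 1 samples, against 25.8% of all genes. With quantile normalization the median of the 7 was -0.37 and the count was 7, without *Pdia3*, against 26.2% of all genes. These comparisons and their scalings were chosen after the data were seen, describe 2 samples against 4 and were not tested.

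**Figure D3:**
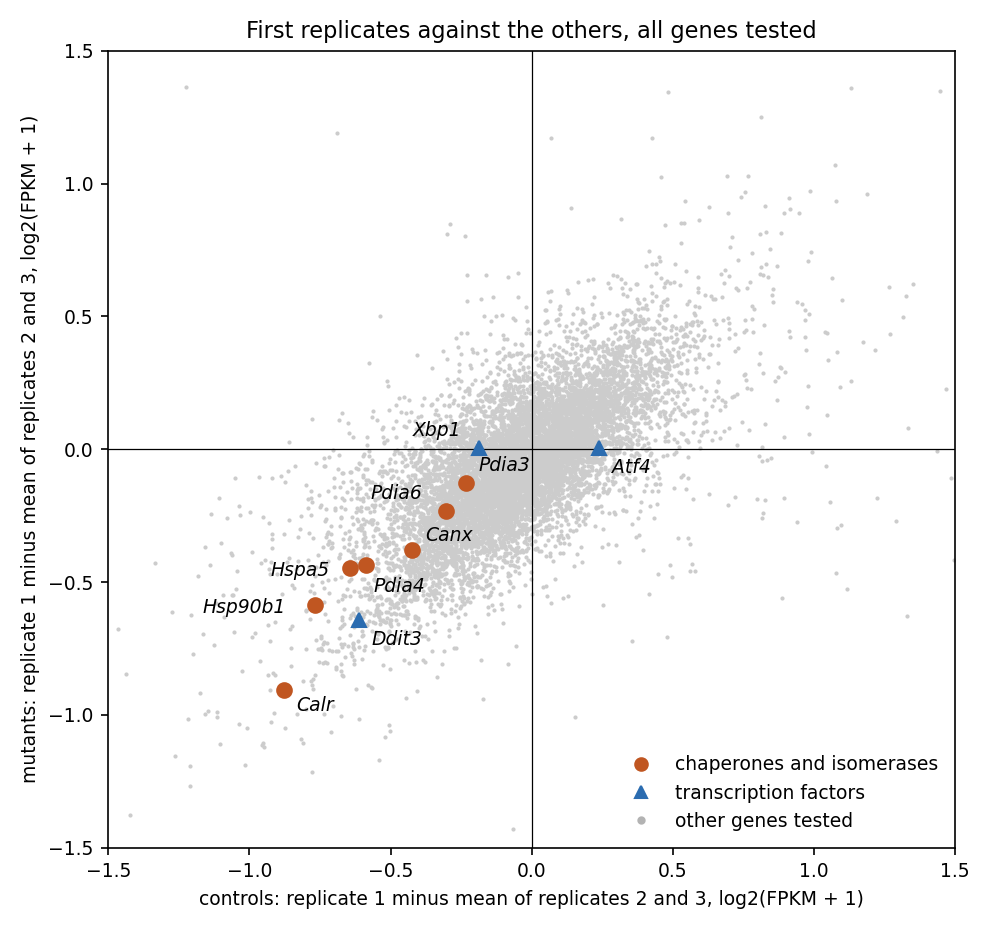
Difference of replicate 1 from the mean of replicates 2 and 3 in log2(FPKM + 1), in controls (x axis) and in mutants (y axis), for all genes tested (grey), the 7 chaperones and isomerases (orange circles) and the 3 transcription factors (blue triangles); 21 genes lie outside the drawn range. The 7 chaperones and *Ddit3* lie in the lower left quadrant, from *Pdia3* near the centre to *Calr* at -0.88 and -0.91.

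Some other values moved with the replicate 1 samples too. The summed FPKM of the erythroid markers was 2622 and 2652 in the replicate 1 samples and 1272 to 2379 in the others. That of the muscle markers was 138 and 143, against 162 to 363, that of 6 epithelium markers was 113 and 114, against 121 to 201, and that of 5 endothelium markers was 75.1 and 80.0, against 88.4 to 103. The facial mesenchyme sums overlapped, at 414 and 464 against 380 to 474. So did the neuron sums, at 854 and 914 against 763 to 1019, and the cartilage and bone sums, at 158 and 193 against 138 to 207. By single genes, 4 of 6 muscle, 3 of 6 epithelium and 4 of 5 endothelium markers were lower in both replicate 1 samples, against 34.7% of all genes tested. Of 4 erythroid markers tested 2 were higher in both, against 18.4%. Across genes, the difference of replicate 1 had a Spearman rho of -0.060 with exonic length and 0.12 with GC content, as a description over 10005 genes. In the 2769 genes within the members' own range of length and GC content the median difference was -0.074. The part of cell composition in the lower chaperone values was not tested, and the labels name no batch for these samples.

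Over the 6 samples the levels of the 7 chaperones and isomerases varied in parallel. Pearson's r between pairs of them, over 21 pairs, was between 0.94 and 0.996, with a median of 0.98. With the mean of the 7, r was 0.99 for *Ddit3*, 0.64 for *Xbp1* and -0.68 for *Atf4*. These are descriptions over 6 samples, and they share the split of the replicate 1 samples from the others, and 827 of the other genes tested, or 8.23%, also had an r over 0.95 with that mean. The 5 most alike were *Zc3h13*, *Trp53bp1*, *Dis3l*, *Ndufab1* and *Tceb3*, each with an r between 0.998 and 0.999. The most alike, *Zc3h13*, was at 10.01, 18.4 and 17.5 FPKM in the control samples and at 10.6, 16.4 and 17.7 in the mutant samples, and like the chaperones its log2 fold change between genotypes, -0.026, was within the replicate spread.

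The wider ER network was followed in lists of genes that work with the 10. The list of cofactors of BiP and small ER chaperones held 11 genes, all tested. None had an unadjusted p under 0.05, 4 had a log2 fold change above 0 and 7 below, and the median was -0.013. Beside this list and those below, 5311 of all 10061 genes tested were above 0 and 4750 below. *Dnajc3*, a cochaperone that also inhibits Perk, was at 12.8, 13.9 and 12.9 FPKM in the control samples and at 12.47, 11.97 and 12.7 in the mutant samples. These groups did not overlap, as in 5.0% of all genes tested, with a log2 fold change of -0.086 (SE 0.074). *Hyou1*, an exchange factor of BiP, was at 40.6, 50.4 and 48.7 FPKM in the control samples and at 40.7, 46.4 and 48.1 in the mutant samples, *Dnajb9*, which binds Ire1, had a log2 fold change of -0.028, and *Sil1*, the other exchange factor, one of -0.030. By replicate number, 6 of the 11 were lower in both replicate 1 samples and 2 were higher, against 34.7% and 18.4% of all genes tested. *Manf*, a secreted ER stress protein named here after its values were seen, was at 63.3, 117 and 124 FPKM in the control samples and at 65.0, 119 and 115 in the mutant samples, a difference of replicate 1 of -0.88, close to that of *Calr*.

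In the lectin chaperone cycle, 6 of 7 genes were tested, and the other, *Clgn*, was under the filter. Without further scaling all 6 had a log2 fold change below 0, between -0.072 and -0.032, and none had an unadjusted p under 0.05. Of all 10061 genes tested 4750 were below 0. Whether the list as a whole differs was not tested. The named ones were the glucosidase subunits *Ganab* (-0.032) and *Prkcsh* (-0.057), the first glucosidase *Mogs* (-0.064) and the sugar-binding *Mlec* (-0.043), with standard errors between 0.070 and 0.13. Of 9 other disulfide isomerases and oxidases, 8 were tested and none had an unadjusted p under 0.05. *P4hb*, the main isomerase and a subunit of the collagen prolyl hydroxylases, was at 245, 293 and 286 FPKM in the control samples and at 239, 285 and 270 in the mutant samples, with a log2 fold change of -0.051 (SE 0.11). *Pdia5*, *Erp44* and the oxidase *Ero1l* had log2 fold changes of 0.068, -0.021 and -0.049.

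ER-associated degradation removes proteins that fail to fold. Of its 13 genes, 12 were tested and none had an unadjusted p under 0.05, with 4 above 0 and 8 below. *Herpud1*, a membrane part of the degradation complex and a common UPR target, was at 19.9, 21.02 and 19.6 FPKM in the control samples and at 18.4, 18.5 and 19.1 in the mutant samples. The groups did not overlap, as in 5.0% of all genes tested, and the log2 fold change was -0.11 (SE 0.070; limma adjusted p = 1.0). The lectins *Edem1* and *Edem2* and the channel protein *Derl2* had log2 fold changes of -0.10, 0.064 and -0.12. By replicate number, 4 of the 12 were lower and 4 higher in both replicate 1 samples, against 34.7% and 18.4% of all genes tested.

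Levels per length differed among the sensors. *Ern1*, which encodes Ire1 and is named here after its values were seen, was between 2.85 and 3.68 FPKM over all samples and was under the filter. Of the other 7 genes of this list, none had an unadjusted p under 0.05. *Eif2ak3*, which encodes Perk, was at 7.51, 8.57 and 8.35 FPKM in the control samples and at 7.48, 8.66 and 8.83 in the mutant samples, with a log2 fold change of 0.027 (SE 0.094). *Atf6b*, a relative of Atf6, was at 55.0, 51.1 and 50.8 FPKM in the control samples and at 50.9, 52.0 and 48.8 in the mutant samples, and its log2 fold change was -0.047. *Creb3l1* and *Creb3l2*, factors related to Atf6 that act in bone and cartilage secretion, had the lowest log2 fold changes of the list, at -0.24 (SE 0.18) and -0.20 (SE 0.15). *Creb3l2* was at 14.6, 22.3 and 17.5 FPKM in the control samples and at 16.3, 16.0 and 14.1 in the mutant samples, so that the groups overlapped and control replicate 2 was the highest. With 1 sample left out the log2 fold change of *Creb3l2* ran from -0.34 without control replicate 1 to -0.046 without control replicate 2. That of *Creb3l1* ran from -0.39 without mutant replicate 2 to -0.094 without mutant replicate 3, and it was -0.10 without control replicate 2. *Creb3l1* was tested through the controls alone, since mutant replicate 3 was at 4.27 FPKM, under the filter. With the replicate block, *Creb3l1* had an unadjusted p of 0.0382 and an adjusted p of 0.812 in limma.

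Of 20 target genes of Atf4 and CHOP, 14 were tested, 9 with a log2 fold change above 0 and 5 below, and a median of 0.043. None had an unadjusted p under 0.05. *Slc7a11*, the cystine transporter subunit, had the highest log2 fold change, 0.36 (SE 0.26), at 6.39, 4.07 and 4.60 FPKM in the control samples and at 10.3, 5.52 and 5.06 in the mutant samples. It was tested through the mutants alone, since control replicates 2 and 3 were under the filter. With 1 sample left out its log2 fold change ran from 0.082 without mutant replicate 1 to 0.53 without mutant replicate 3. With the Y-linked covariate it was 0.022, a value that rests almost wholly on mutant replicate 3 against the controls. Mutant exceeded control at all 3 replicate numbers, a pairing that the labels do not state. Limma with the number as block gave an unadjusted p of 0.0180 and an adjusted p of 0.804. *Bbc3* (Puma, 0.14), *Sesn2* (0.096) and *Atf5* (-0.094) followed by unadjusted p. The 6 genes under the filter included targets known to rise sharply in ER stress, named here after their values were seen. *Trib3* was between 1.23 and 3.07 FPKM, *Chac1* between 0.456 and 1.17, *Atf3* between 0.787 and 1.23, and *Gdf15* no higher than 0.0448 in any sample. By replicate number, 1 of the 14 genes was lower in both replicate 1 samples, *Ppp1r15a*, named here for that reason after its values were seen, and 4 were higher. Over all genes tested the shares were 34.7% lower and 18.4% higher.

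**Figure D4:**
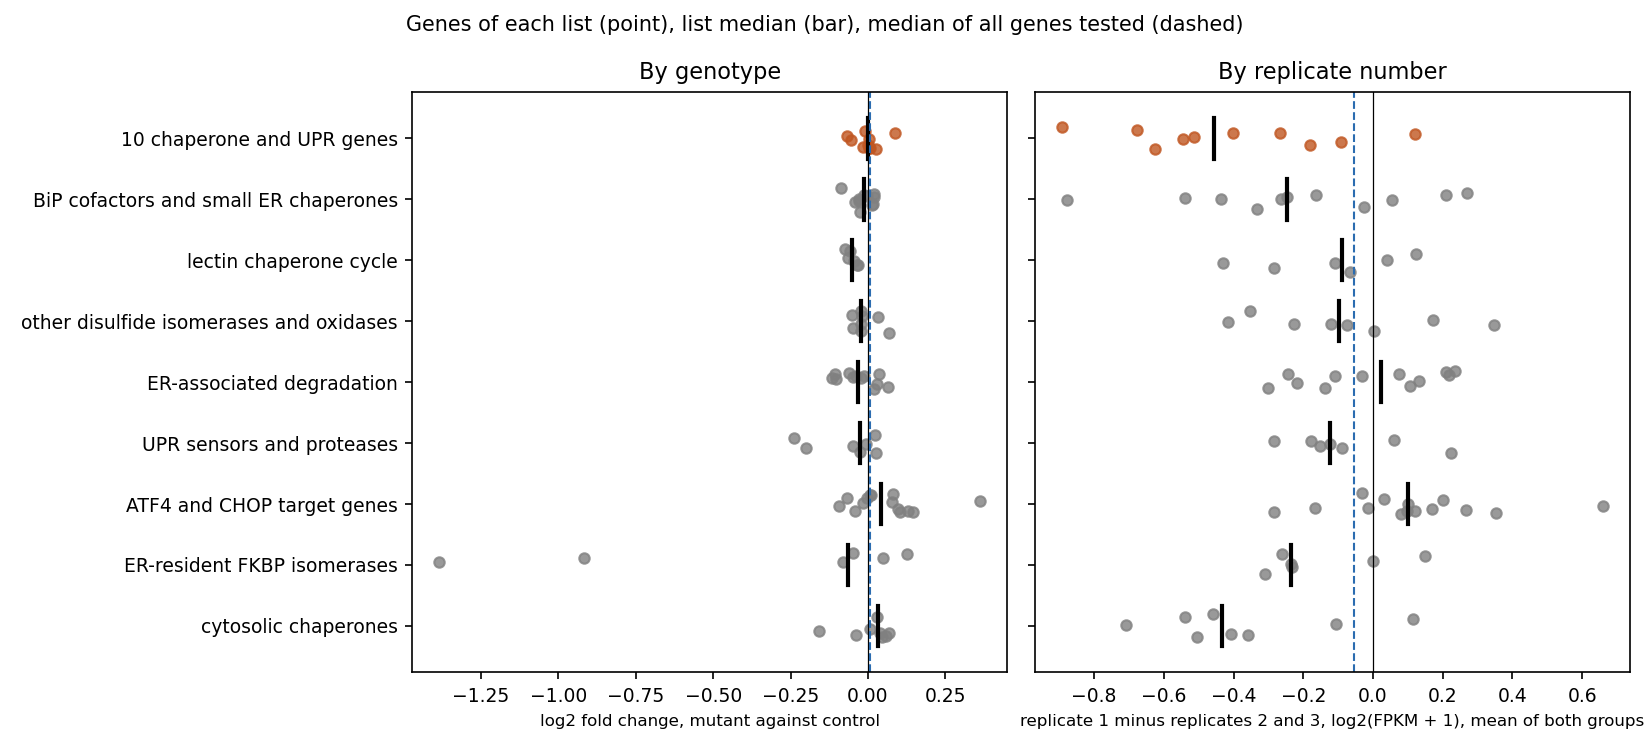
Genes of each list as points, with the list median (black bar) and the median of all genes tested (dashed line); left, log2 fold change between mutants and controls; right, difference of replicate 1 from replicates 2 and 3, averaged over both genotypes. For the lists drawn, the medians by genotype lie between -0.064 and 0.043, and by replicate number the median is -0.46 for the 10 chaperone and UPR genes and -0.43 for the cytosolic chaperones; marker lists of other cell types are not drawn.

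The ERSE was also found in windows of *Dnajc3* and *Creld2* among the BiP cofactors and of *Syvn1* and *Derl3* in ER-associated degradation, out of 8 and 10 genes of these lists with a window, and these genes are named for their match. Beyond the members, 9 tested genes had an exact element. Their median log2 fold change by genotype was -0.054 and their median difference of replicate 1 was -0.060, the latter next to -0.060 in the 7544 tested genes with a window and no element. Cytosolic chaperones, a list added after the values of the 10 genes were seen, were set beside those of the ER. Of 10 such genes 8 were tested, and none had an unadjusted p under 0.05 by genotype. In both replicate 1 samples 7 were lower, against 34.7% of all genes tested. *Hsp90aa1* and *Hspa8*, abundant members of that list, are given as examples chosen with their values known. *Hsp90aa1* was at 274, 405 and 449 FPKM in the control samples and at 267, 413 and 509 in the mutant samples, and *Hspa8* at 800, 1095 and 1111 in controls and 829, 1077 and 1197 in mutants. The difference by replicate number was present in chaperones of both compartments, with a median of -0.43 over the cytosolic list, and was not limited to chaperones. Medians were also below 0 for muscle (-0.68), epithelium (-0.52) and endothelium (-0.32) markers. They were above 0 for erythroid (0.62), cartilage and bone (0.11) and neuron (0.027) markers, Atf4 and CHOP targets (0.099) and ER-associated degradation (0.022).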

How the data were processed

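RNA-Seq was performed by the authors on poly(A)+ RNA of 3 control and 3 mutant samples with stranded, paired-end libraries. Reads were aligned with STAR to GRCm38, and both MISO and Cuffdiff were used for differential expression of genes and transcripts. The submitters' processing notes add FastQC 0.11.4, while other versions, the annotation and the step that made the gene table are not given in the sources used here. The authors deposited FPKM values in 6 tables of single samples and 1 joint table, which held identical values (0 of 231318 differed). The count of reads behind a value is lost, so there is neither a counting interval nor a count test.

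A gene was tested if its FPKM exceeded 5 in every sample of at least 1 genotype (10061 genes) on log2(FPKM + 1), a scale that understates the change of low genes, with limma 3.58.1 in R 4.3.3, an intensity trend and no covariates. Adjusted p-values are Benjamini-Hochberg values across those genes. The fit was tested on simulated data with independent noise in each gene. The simulated data held no shift of the replicate 1 samples, so that test does not cover it. The authors state that the 3 samples of a genotype were independent biological replicates. Samples with the same number deviated together from their group means (r = 0.64, 0.26 and 0.51 for numbers 1, 2 and 3 across genes), so the replicate number was used as a block in an alternative fit. Samples with the numbers 2 and 3 crossed also correlated (r = 0.23 and 0.40). These values therefore set apart only the samples numbered 1, and the labels state no pairing by number. Likeness to the chaperones was Pearson's r over the 6 samples.

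The members, lists and tests were chosen with earlier results of these data known. Text names the 10 members, *Rbfox2*, *Fkbp7*, *Fkbp14*, up to 4 genes with the smallest p of each list, listed genes whose groups do not overlap, and the 5 genes most alike. Genes named outside this rule (among them *Ern1*, *Clgn*, *Creld2*, *Syvn1*, *Derl3*, *Manf*, *Ppp1r15a*, *Hsp90aa1*, *Hspa8* and the targets under the filter) were chosen after their values or matches were seen. Coordinates are from GENCODE M21 (GRCm38), which held 95.0% of identifiers. Promoter windows were matched by symbol, which found all 10 members. Protein sequences were not used here. Alternatives were a pseudocount of 0.1, 2 scalings, filters of 1 FPKM and none, no trend, the block, a Y-linked covariate, a term for replicate 1, replicates 2 and 3 only, and each sample left out.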

Additional observations from a re-analysis of the deposited data

How the results depend on the processing

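The exact count of reads behind each FPKM value is unknown, and 3 samples per genotype leave wide intervals for the genes in which replicate 1 stood apart. In limma under all 16 alternatives, an adjusted p under 0.05 was reached by 0 of the 10 genes, and the lowest was 0.432, for *Atf4* in replicates 2 and 3 alone. The median log2 fold change of the 10 ranged from -0.20, without control replicate 1, to 0.11, with the Y-linked covariate. The latter fit sets mutant replicate 3 almost alone against the controls. The causes of the changes below were not tested.

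Genes with an adjusted p under 0.05 numbered 0, against 4 with no filter, 3 with a term for replicate 1, 4 in replicates 2 and 3 only, and 0 to 1 with 1 sample left out (1 without mutant replicate 3). Those with an unadjusted p under 0.05 numbered 167, against 604 with the replicate block, 304 with a filter of 1 FPKM, 809 with no filter, 611 with a term for replicate 1, 1103 in replicates 2 and 3 only, and 78 (without control replicate 2) to 649 (without control replicate 1) with 1 sample left out, with 413 without mutant replicate 1 and 108 without mutant replicate 2. Of the 10 genes, 0 had an unadjusted p under 0.05, and 1 did in replicates 2 and 3 only. The UPR sensors had 1 with the replicate block, 1 in replicates 2 and 3 only and 0 to 1 with 1 sample left out (1 without control replicate 1). ER-associated degradation had 1 with no filter. The Atf4 and CHOP targets had 1 with the replicate block, 1 with a term for replicate 1, 4 in replicates 2 and 3 only and 0 to 3 with 1 sample left out (3 without control replicate 1). Among the genes of the ER and UPR lists and the 10 members, the replicate block changed no other call at this threshold. With the block alone, 10 cell type markers reached it. The neuron markers *Tubb3*, *Dcx*, *Elavl3* and *Map2*, all higher in mutants, reached it both with and without the block. The 604 of all 10061 genes with the block likewise include genes that reached it without the block. Of the 10 markers that reached it with the block alone, *Stmn2*, *Elavl4*, *Hba-a2* and *Hbb-bh1* were higher in mutants. The others, *Krt5*, *Krt14*, *Myod1*, *Myog*, *Actc1* and *Tnnt1*, were lower. *Rbfox2* had an adjusted p of 0.0296 with a term for replicate 1 and 0.0328 in replicates 2 and 3 only, and *Fkbp7* 0.0256 and 0.0328.

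Log2 fold changes that changed sign were, in replicates 2 and 3 only, -0.040 for *Hspa5*, -0.030 for *Pdia3*, -0.021 for *Pdia6*, -0.058 for *Xbp1* and 0.035 for *Sil1*. With the Y-linked covariate they were 0.26 for *Hsp90b1*, 0.30 for *Calr*, 0.067 for *Canx*, 0.13 for *Pdia4*, 0.22 for *Ddit3*, 0.055 for *Hyou1*, 0.026 for *Prkcsh*, 0.0088 for *Ero1l*, 0.24 for *Zc3h13*, 0.16 for *Trp53bp1*, 0.11 for *Dis3l*, 0.39 for *Ndufab1* and 0.12 for *Tceb3*. These values with the Y-linked covariate rest almost wholly on mutant replicate 3 against the controls. *Pdia6* was at -0.0019 with median ratio scaling and -0.0064 with quantile normalization, where *Dis3l* was at 0.0041 and *Tceb3* at 0.0094. With each sample left out in turn the ranges were -0.19 to 0.17 for *Hspa5*, -0.26 to 0.19 for *Hsp90b1*, -0.30 to 0.29 for *Calr*, -0.21 to 0.059 for *Canx*, -0.073 to 0.051 for *Pdia3*, -0.25 to 0.091 for *Pdia4*, -0.10 to 0.080 for *Pdia6*, -0.22 to 0.20 for *Ddit3*, -0.057 to 0.074 for *Xbp1*, -0.023 to 0.094 for *Eif2ak3*, -0.14 to 0.028 for *Hyou1*, -0.13 to 0.057 for *Sil1*, -0.13 to 0.027 for *Dnajb9*, -0.14 to 0.063 for *Prkcsh*, -0.13 to 0.020 for *P4hb*, -0.041 to 0.20 for *Pdia5*, -0.095 to 0.026 for *Ero1l*, -0.23 to 0.030 for *Fkbp9*, -0.29 to 0.19 for *Zc3h13*, -0.20 to 0.14 for *Trp53bp1*, -0.12 to 0.090 for *Dis3l*, -0.42 to 0.30 for *Ndufab1* and -0.11 to 0.090 for *Tceb3*.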
